A study of Mus musculus with 8 samples.

Results

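The Wnt genes of the mouse knee are described here: 47 genes for secreted Wnt ligands, their receptors, their secreted modulators and their nuclear effectors, out of 20681 genes in the deposited table. The members were the rows whose gene name equals an entry of a given list, and all 47 entries were found: 12 ligands, 10 Frizzled receptors, 4 co-receptors, 10 secreted antagonists, 8 genes of the R-spondin axis, and 3 targets and factors. Poly-A RNA was sequenced from 8 knee joint samples, of which 4 carry the label control and 4 the label knockout. Every joint came, by the design text, from Acan-Cre;Loxl2 fl/fl mice, in which a Cre recombinase driven by the cartilage gene Acan can delete Loxl2, the gene of the collagen cross-linking enzyme lysyl oxidase-like 2. The controls were vehicle-treated and named LOXL2wt, and the other group was the conditional knockout, named LOXL2ko. What the knockout group received in place of vehicle, and the age of the mice, are not in the labels. All 8 library names carry DMM, which usually stands for surgical destabilisation of the medial meniscus and which the labels do not spell out, so the contrast sets operated joints against operated joints, as far as the names tell. Acan-Cre acts in cells that express Acan, chiefly chondrocytes, while a whole knee also holds bone, marrow, synovium, tendon, fat and muscle.

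Wnt proteins are lipid-modified ligands that bind Frizzled receptors on the cell surface. With the co-receptors Lrp5 and Lrp6 they stabilise beta-catenin, which then acts with Tcf7 and Lef1 on target genes such as Axin2, and with Ror1 and Ror2 they signal without beta-catenin. Secreted Frizzled-related proteins, Wif1 and Notum act on the ligands, and Dkk1 and Dkk2 act on Lrp5 and Lrp6. R-spondins with Lgr receptors keep the ligases Znrf3 and Rnf43 from removing Frizzled. In the joint this system is known for its part in bone formation, joint formation and cartilage maintenance.

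Values are normalised reads, the authors' gene counts divided by a size factor per library, and differences are log2 differences of the libraries labelled knockout from the controls. The libraries held 13991000 to 17411617 reads. The targeted gene went against its label: Loxl2 had 282, 349, 1135 and 311 normalised reads in the controls (by replicate number) and 893, 1468, 960.3 and 1518 in the libraries labelled knockout, and its difference was 1.44 (SE 0.40, limma adjusted p = 0.0294). The groups are therefore named by their labels only. The tissue label fitted its markers: cartilage, bone, fibroblast, macrophage and muscle genes were read. Of the listed markers with values, only Matn3, a cartilage matrix gene, was at 0 in any library. The listed markers Matn1 (cartilage) and Ahsp (erythroid) had no values here. Several of these lists moved with the groups. The 14 fibroblast markers summed to 0.493% to 1.41% of a control library's normalised reads and to 1.60% to 3.19% of a library labelled knockout, with 10 of 14 called higher. The 18 skeletal muscle markers summed to 16.2% to 16.6% and to 10.1% to 13.1%, with 7 of 18 called lower. Of the osteoblast and osteocyte markers 5 of 10 were called higher, of the osteoclast markers 7 of 8, of the macrophage markers 9 of 10, and of the chondrocyte markers 2 of 11. The 11 chondrocyte markers summed to 0.0230% to 0.0636% of a control library and to 0.0736% to 0.116% of a library labelled knockout. Of all genes tested, 11.6% were called higher and 11.6% lower. Of the endothelial, adipocyte, erythroid and neutrophil markers 0 were called. All 7 erythroid and all 8 neutrophil markers tested lay below 0, with median differences of -1.95 and -0.64. Beyond the covariate fit given below for muscle, the part of these lists in the Wnt results was not tested, and in whole joints fewer cells of a type and less RNA per cell cannot be told apart.

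The Wnt genes that differed between the groups were mostly higher in the libraries labelled knockout. Of the 47 genes, 43 were abundant enough to test, with at least 10 normalised reads in at least 4 libraries. By limma at an adjusted p under 0.05 over all genes tested, 17 of the 43 were called: 15 were higher and 2, Wnt4 and Fzd7, were lower. That is 39.5% of the tested Wnt genes, against 23.2% of the 14949 genes tested. Calls in the higher direction were made for 34.9% of the Wnt genes against 11.6% of all genes, and calls in the lower direction for 4.65% against 11.6%. The median log2 difference of the 43 genes was 0.54, while that of all genes was 0.00. A rise by a log2 of at least 1 was measured for 13 of the 43, or 30.2%, against 7.51% of all genes. A fall of that size was measured for 0 of the 43, against 1.26% of all genes. The median SE was 0.307 for the Wnt genes and 0.169 for all genes, so shares past a fixed cut-off are not like for like. The groups did not overlap for 11 of the 43 genes, or 25.6%, which is close to the 25.1% found over all genes. Of these 11, 10 were higher in the libraries labelled knockout, 23.3% of the Wnt genes against 11.7% of all genes, and 1 was lower, 2.33% against 13.4%. When the libraries were scaled to the sum of the genes left without muscle, erythroid and neutrophil markers and the highest genes, the median of all genes moved to 0.15 and 2756 of all genes were called higher (18.4%) against 769 lower, and the Wnt genes called were 15 higher and 1 lower. With the mean level of the muscle markers as a covariate, limma called 0 of the Wnt genes and 0 of all genes, with 5 and 611 at an unadjusted p under 0.05, and edgeR and DESeq2 without that covariate called 16 and 17. In the covariate fit 15 of the 17 called genes kept their direction, while Wnt4 went to 0.13 and Fzd8 to -0.084. Of the variance of that muscle level, 84.1% lay between the groups.

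**Figure D1:**
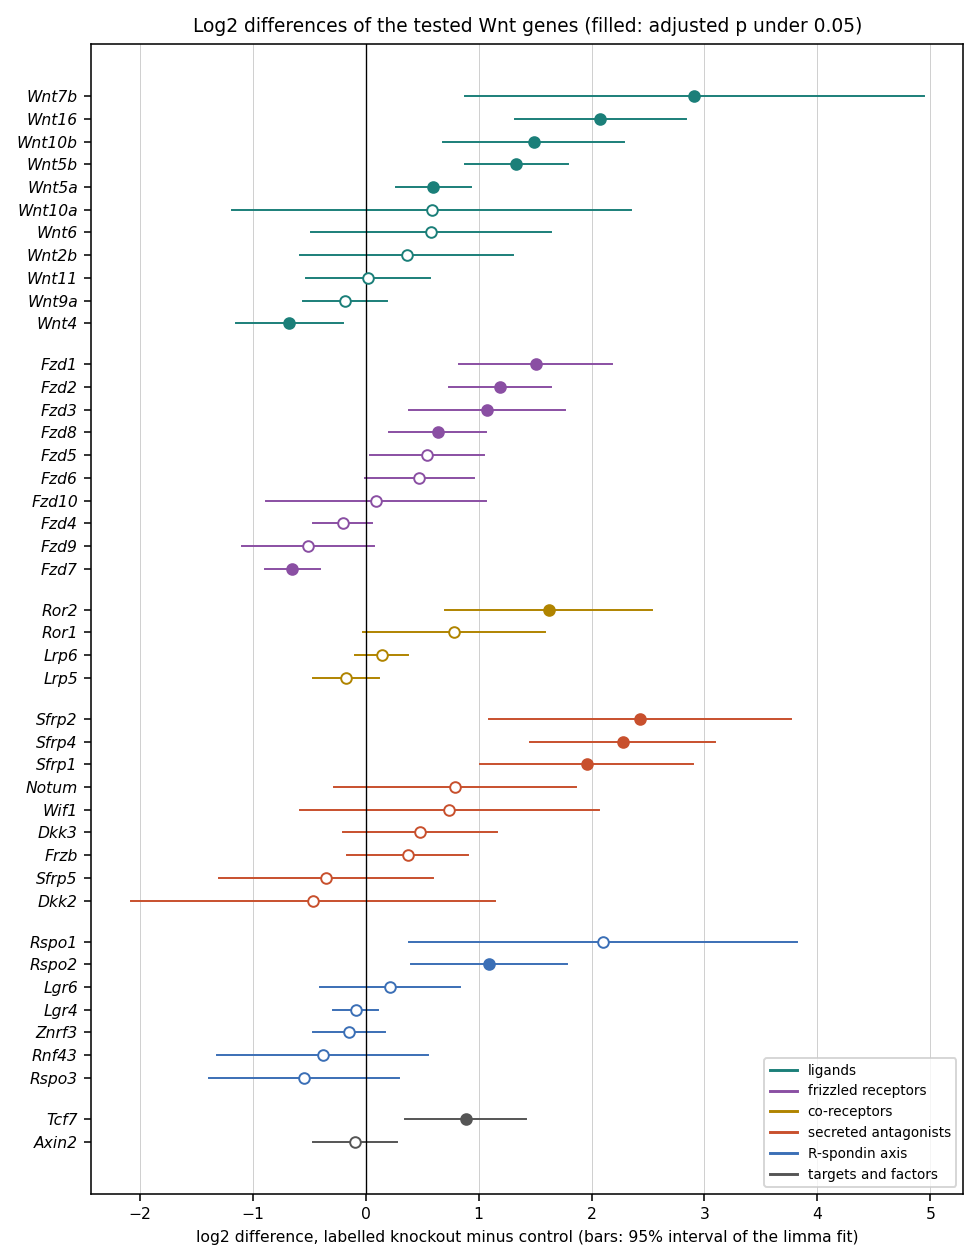
Log2 difference (labelled knockout minus control, horizontal axis) of each of the 43 tested Wnt genes with its 95% interval from the limma fit, grouped by role; filled points have an adjusted p under 0.05. Of the filled points 15 lie to the right of 0 and 2, Wnt4 and Fzd7, lie to the left.

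**Figure D2:**
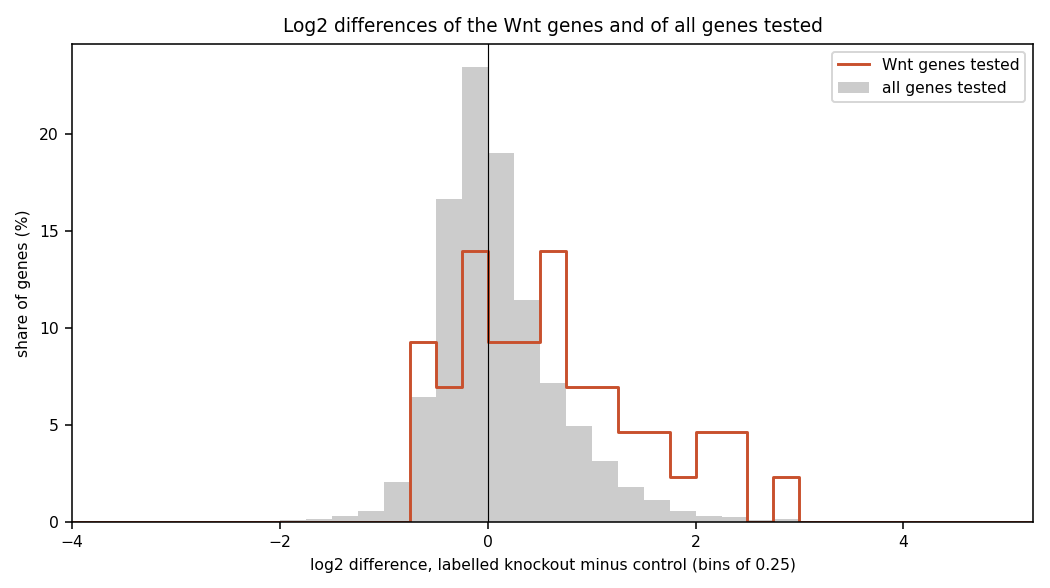
Distribution of log2 differences (horizontal axis, labelled knockout minus control, bins of 0.25) as a share of genes in percent (vertical axis), for the 43 tested Wnt genes (line) and all 14949 genes tested (grey bars). The Wnt genes have a median of 0.54 and the whole table one of 0.00.

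Among the ligands, 5 of the 11 tested genes were called higher and 1 lower. Of all genes tested, 23.2% were called, 11.6% in each direction. Wnt5b (chromosome 6, 119432531 to 119544347), a ligand of the beta-catenin-independent branch that is expressed in cartilage, had 119, 104, 95.3 and 103 normalised reads in the controls and 370.0, 289.9, 263 and 178 in the libraries labelled knockout, in the order of the replicate numbers here and below. The control libraries lay close together, the others were spread, and the groups did not overlap. The difference was 1.33 (SE 0.20, limma adjusted p = 0.00462), a 2.52-fold rise that was called in all 18 alternatives other than the muscle covariate, among them other scalings, other tools and the loss of each library in turn. Fbxl14, a gene on the opposite strand within Wnt5b, had a difference of 0.08 (adjusted p = 0.556).

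Wnt16 (chromosome 6, 22288227 to 22298522), a ligand known for its part in joint lining, cartilage and cortical bone, had 18.4, 40.4, 52.3 and 17.5 normalised reads in the controls and 135, 132, 115 and 119.7 in the libraries labelled knockout. The latter were nearly level and all lay above the highest control. The difference was 2.08 (SE 0.34, adjusted p = 0.00549), or 4.23-fold. Wnt10b (chromosome 15, 98770712 to 98778150), a ligand that favours bone over fat formation, had 67.1, 26.2, 95.3 and 93.1 normalised reads in the controls and 203, 186, 153 and 175 in the libraries labelled knockout, again without overlap. Its difference was 1.49 (SE 0.36, adjusted p = 0.0179). Both genes were called in all 18 alternatives.

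Wnt5a (chromosome 14, 28504750 to 28527448), the ligand most tied to Ror receptors, rose less. Its values were 120.1, 135, 108 and 94.2 in the controls and 190.5, 158, 186 and 158 in the libraries labelled knockout, with no overlap. The difference was 0.60 (SE 0.15, adjusted p = 0.0202). The call was lost when control replicate 4 was left out, or knockout replicate 1, under quantile normalisation and with the replicate number as a block.

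Wnt7b (chromosome 15, 85535437 to 85582473), a ligand that promotes bone formation, had the largest difference of all the members, on few reads. It had 1.08, 13.1, 7.48 and 2.19 normalised reads in the controls and 98.7, 5.13, 78.3 and 51.1 in the libraries labelled knockout. Knockout replicate 2 lay among the controls and the other 3 were far above them. The difference was 2.91 (SE 0.91, adjusted p = 0.0447), and its call was lost without control replicate 1, 3 or 4, under quantile normalisation and under the replicate block. On leaving out control replicate 2, or knockout replicate 1, 3 or 4, it fell below the filter on low values. Wnt7b passed that filter mainly through the libraries labelled knockout, where it was high.

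Wnt4 (chromosome 4, 137277489 to 137299726), a ligand with roles in muscle, synovium and kidney development, was the ligand that fell. It had 465, 421, 333 and 328 normalised reads in the controls and 349, 205, 263 and 173 in the libraries labelled knockout, and knockout replicate 1 lay inside the control range. The difference was -0.68 (SE 0.21, adjusted p = 0.0462). The call was kept in 9 of the 18 alternatives, and its sign turned with the muscle covariate. It was lost with edgeR, without the filter on low values, under the scaling to the remaining genes, and on leaving out control replicate 1, 2 or 4, or knockout replicate 2, 3 or 4.

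The other ligands were not called. Wnt9a, which takes part in joint formation, was the ligand with the highest level per kb of exon over the 8 libraries, with 289.9, 287, 313 and 409.7 normalised reads in the controls and 258, 346, 225 and 318 in the libraries labelled knockout. The groups overlapped, and the 95% interval of its log2 difference ran from -0.55 to 0.19. Wnt11 ranged from 139 to 273 over the 8 libraries (difference 0.02, 95% interval -0.53 to 0.57). Wnt2b ranged from 15.1 to 66.6, Wnt6 from 4.38 to 22.9 and Wnt10a from 1.08 to 18.5, with differences of 0.36, 0.58 and 0.59 whose intervals all held 0. Wnt2, the remaining ligand, was at 0 in control replicate 4 and reached 11.4 normalised reads at most, below the filter on low values.

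**Figure D3:**
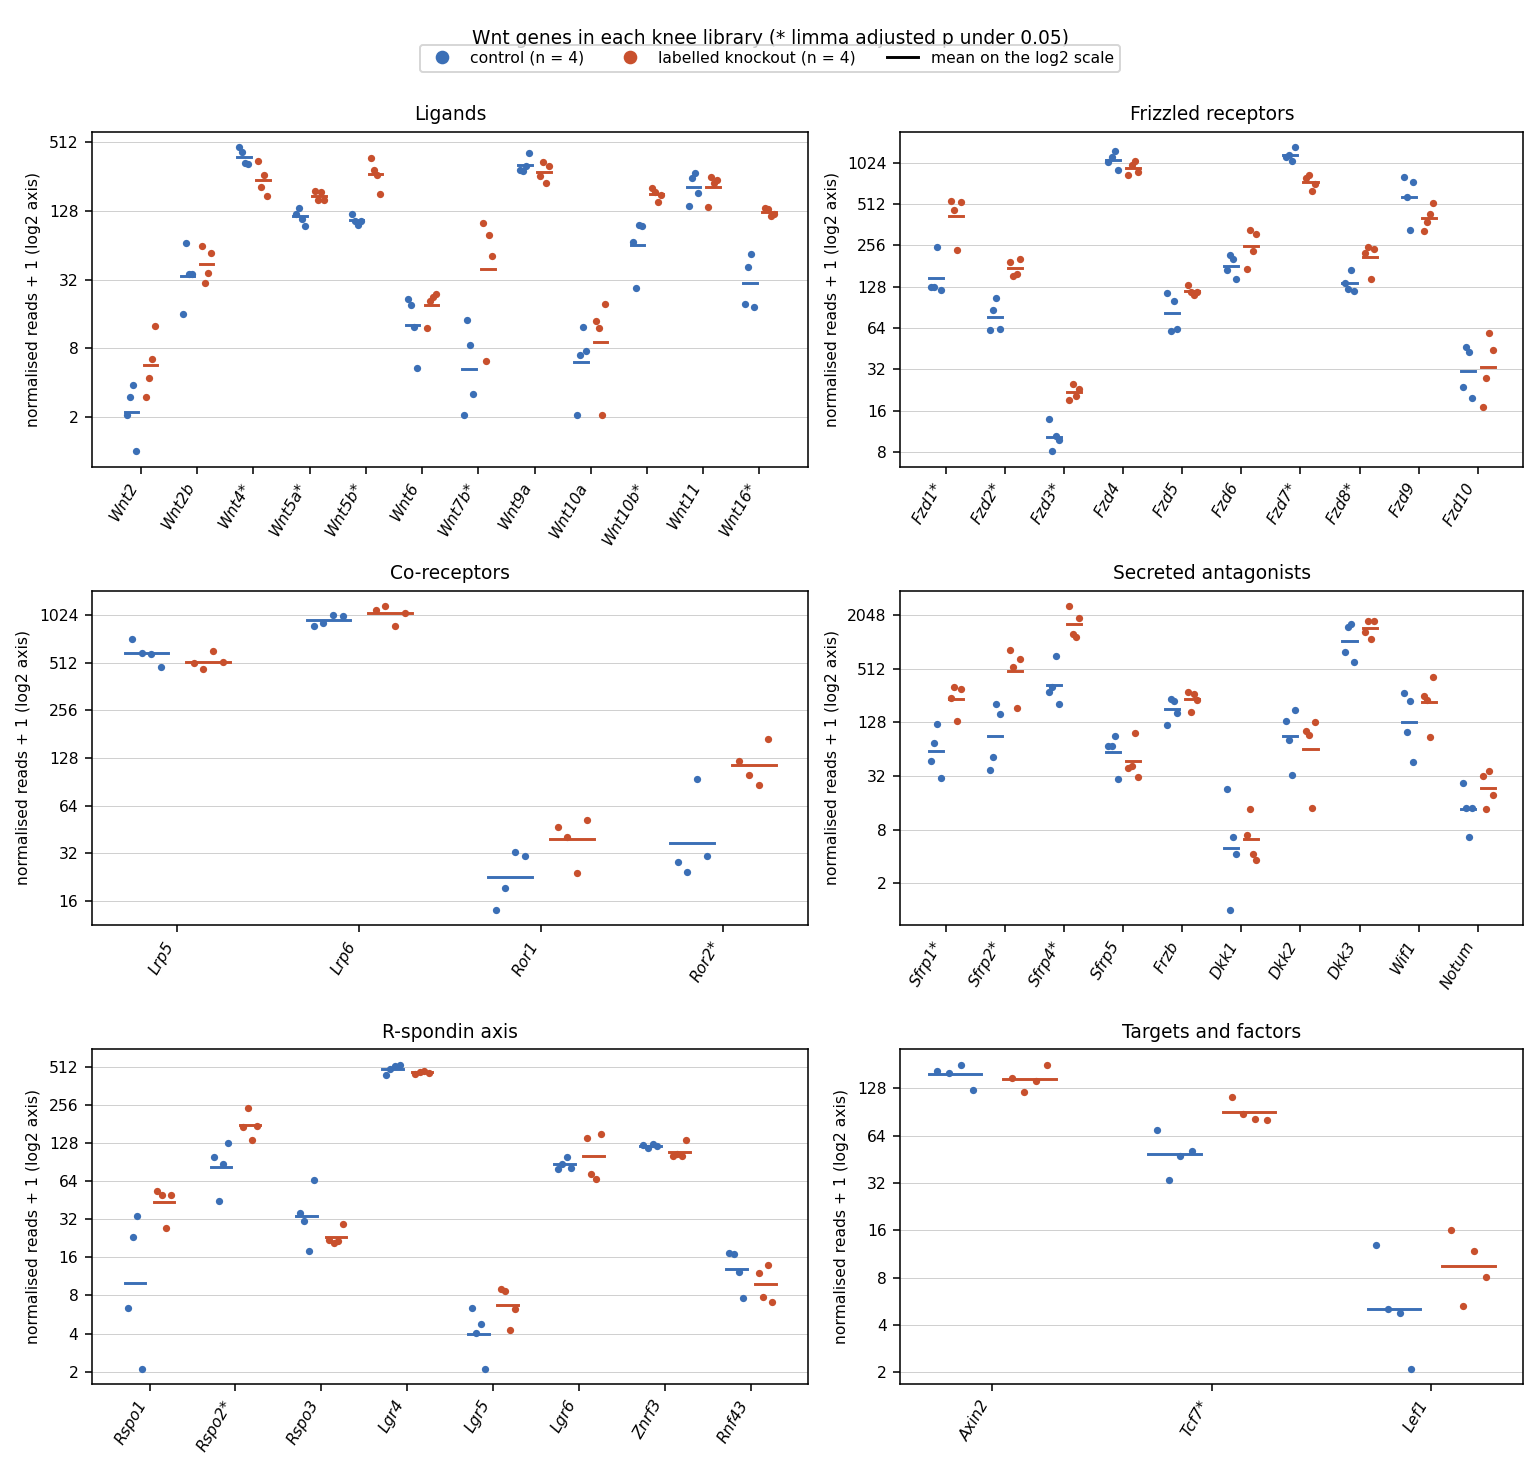
Normalised reads plus 1 (vertical log2 axis) of all 47 Wnt genes in each of the 8 knee libraries, by role; points are libraries, short bars are means on the log2 scale, and asterisks mark an adjusted p under 0.05. Wnt16, Sfrp4 and Fzd2 show groups without overlap, Fzd7 lies lower in the libraries labelled knockout, and Axin2 and Lgr4 overlap.

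The promoters of members that moved apart are shown with the letters of the TCF/LEF core, the motif through which Tcf7 and Lef1 meet DNA. The 250 bases before each start were taken from RefSeq on GRCm38.p6, which has the coordinates of mm10, and were searched on both strands for the letters CTTTG followed by AA, AT, TA or TT. RefSeq windows were matched by symbol for 30 of the 47 members. A match was present for 5 of these 30 genes (16.7%), namely Wnt5b, Fzd7, Wnt11, Dkk1 and Lef1, against 13.1% of the 13321 genes of the table with a window. Of the members called higher that have a window, 1 of 7 held a match. Wnt5b, the ligand with the smallest adjusted p, has 3 annotated starts that the gene count adds together, and 1 of the 3 windows holds a match. Fzd7 was the receptor that fell, and Wnt16 and Sfrp2 had the largest differences among the called members with a window. Each line runs 5′ to 3′ on the strand of the gene, and capitals mark the TCF/LEF letters, written as they stand on that strand.
Wnt5b, chr6:119449387-119449636, minus strand: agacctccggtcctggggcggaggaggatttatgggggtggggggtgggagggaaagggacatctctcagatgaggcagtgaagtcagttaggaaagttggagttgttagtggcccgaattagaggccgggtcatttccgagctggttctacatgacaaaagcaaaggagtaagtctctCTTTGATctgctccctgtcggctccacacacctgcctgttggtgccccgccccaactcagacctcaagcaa
Wnt5b, chr6:119467212-119467461, minus strand: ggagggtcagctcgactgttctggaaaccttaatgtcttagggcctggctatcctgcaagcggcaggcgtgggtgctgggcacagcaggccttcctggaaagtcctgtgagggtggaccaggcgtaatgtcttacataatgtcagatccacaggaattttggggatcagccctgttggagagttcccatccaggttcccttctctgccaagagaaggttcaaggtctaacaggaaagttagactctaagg
Wnt5b, chr6:119544348-119544597, minus strand: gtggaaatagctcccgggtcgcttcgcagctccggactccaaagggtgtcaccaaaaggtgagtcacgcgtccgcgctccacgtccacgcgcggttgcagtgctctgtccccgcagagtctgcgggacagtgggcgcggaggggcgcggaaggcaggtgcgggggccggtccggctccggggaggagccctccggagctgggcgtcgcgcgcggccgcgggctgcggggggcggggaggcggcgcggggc
Fzd7, chr1:59481897-59482146, plus strand: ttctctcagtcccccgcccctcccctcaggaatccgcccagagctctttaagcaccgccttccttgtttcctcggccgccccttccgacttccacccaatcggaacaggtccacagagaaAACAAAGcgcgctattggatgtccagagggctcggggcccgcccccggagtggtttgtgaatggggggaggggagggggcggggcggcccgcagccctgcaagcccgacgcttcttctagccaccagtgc
Wnt16, chr6:22287977-22288226, plus strand: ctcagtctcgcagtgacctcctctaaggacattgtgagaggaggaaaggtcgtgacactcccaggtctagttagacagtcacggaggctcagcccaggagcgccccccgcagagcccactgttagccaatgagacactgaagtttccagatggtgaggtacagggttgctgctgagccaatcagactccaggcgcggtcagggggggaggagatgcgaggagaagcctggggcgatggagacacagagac
Sfrp2, chr3:83766071-83766320, plus strand: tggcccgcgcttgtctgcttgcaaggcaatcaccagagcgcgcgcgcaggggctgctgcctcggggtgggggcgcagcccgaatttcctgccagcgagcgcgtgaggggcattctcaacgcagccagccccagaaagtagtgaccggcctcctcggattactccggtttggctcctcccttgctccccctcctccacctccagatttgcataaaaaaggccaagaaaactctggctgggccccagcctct
The match in Wnt5b begins 71 bases before its start and reads forward, and that in Fzd7 begins 130 bases before its start and reads on the other strand. The Wnt16 and Sfrp2 windows hold none of these letters. The Wnt5b windows differ in base composition: the outermost, with 35 CpG pairs and 75.2% G and C, is CpG-rich, while the inner ones have 4 and 7 CpG pairs. Over all 38 windows of the members the median was 16 CpG pairs, against 13 in all 16931 windows of the table's genes.

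Of the 10 Frizzled receptors, all of which were tested, 4 were called higher and 1 lower. That is 50% called, against 23.2% of all genes tested, with 11.6% in each direction. The receptor that fell, Fzd7 (chromosome 1, 59482424 to 59486955), is a receptor of beta-catenin signalling known from muscle satellite cells. It had 1124, 1169, 1052 and 1339 normalised reads in the controls and 798, 830.5, 637 and 722 in the libraries labelled knockout, so that each of the latter lay below each control. The difference was -0.65 (SE 0.11, adjusted p = 0.00581), or 0.638-fold, and was called in all 18 alternatives other than the muscle covariate. Of the 18 skeletal muscle markers 7 were called lower. With their mean level as a covariate, where 0 of all genes were called, Fzd7 kept its direction and was not called. Beyond that fit, their part in the fall of Fzd7 was not tested.

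Fzd1 (chromosome 5, 4753839 to 4758035) and Fzd2 (chromosome 11, 102604396 to 102608058), close relatives that bind several Wnt ligands, rose. Fzd1 had 125, 126, 248 and 120.5 normalised reads in the controls and 541, 462, 236 and 529.9 in the libraries labelled knockout. Control replicate 3 stood about level with knockout replicate 3 there, and the other libraries were far apart. Its difference was 1.51 (SE 0.30, adjusted p = 0.0102). Fzd2 had 60.6, 85.8, 105 and 62.4 against 194, 152, 158 and 202, with no overlap and a difference of 1.19 (SE 0.20, adjusted p = 0.0061). Both Frizzled genes were called in all 18 alternatives.

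Fzd8 and Fzd3 (chromosome 14, 65192449 to 65262463, a receptor of the planar polarity branch) were called higher with less stability. Fzd8 had 135, 123, 168 and 118 normalised reads in the controls and 224, 249, 146 and 240.3 in the libraries labelled knockout, with knockout replicate 3 inside the control range. Its difference was 0.64 (SE 0.19, adjusted p = 0.0398), and its sign turned with the muscle covariate. Fzd3 was near the limit of the filter, from 7.07 to 13.0 in the controls and from 18.0 to 23.9 in the libraries labelled knockout. It passed the filter mainly through the latter, and the groups did not overlap (difference 1.07, SE 0.31, adjusted p = 0.0326). Both calls were lost under quantile normalisation and the replicate block, and when control replicate 2 or 4 was left out, or knockout replicate 1, 2 or 4; that of Fzd8 was also lost without control replicate 1 and that of Fzd3 without control replicate 3.

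The remaining Frizzled genes were not called. Fzd9, the receptor with the highest level per kb over the 8 libraries and one known from osteoblasts, had 801, 580.4, 329.9 and 739 normalised reads in the controls and 325, 378, 431 and 518 in the libraries labelled knockout. Control replicate 3 was the low one of its group, and the difference of -0.51 (SE 0.26, adjusted p = 0.179) was called without that library (-0.78, adjusted p = 0.0148). Fzd4, a receptor with a known part in vessel growth, ranged from 832 to 1258 (difference -0.20, 95% interval -0.46 to 0.05). Fzd5, from 59.6 to 131, had a difference of 0.54 (adjusted p = 0.106, called without control replicate 1), and Fzd6, from 146 to 330.1, one of 0.48 (adjusted p = 0.138, called without knockout replicate 1). Fzd10 ranged from 16.0 to 57.6 (difference 0.09, 95% interval -0.88 to 1.07).

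Of the 4 co-receptors 1 was called, or 25%, which is close to the 23.2% of all genes tested. Ror2 (chromosome 13, 53109312 to 53286124), a receptor tyrosine kinase for Wnt5a that is needed for cartilage and limb development, was the one that rose. It had 27.0, 23.2, 92.5 and 29.6 normalised reads in the controls and 121, 98.4, 84.8 and 166 in the libraries labelled knockout, and control replicate 3 was the single control among the latter. The difference was 1.62 (SE 0.41, adjusted p = 0.0213), and the call was lost when control replicate 2 or 4 was left out, or knockout replicate 4. Its relative Ror1, from 13.0 to 51.1, had a difference of 0.78 (SE 0.36, adjusted p = 0.141). The beta-catenin co-receptors were not called. Lrp6, the co-receptor with the highest level per kb, had 866, 912, 1019.7 and 999 normalised reads in the controls and 1105, 1167, 874 and 1053 in the libraries labelled knockout, with an interval of the difference from -0.09 to 0.37. Lrp5, a gene known for bone mass, ranged from 462 to 717, with an interval from -0.47 to 0.12.

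The antagonists Sfrp2 and Sfrp4 had the largest rises among the called members with a mean of at least 50 normalised reads. The ligand Wnt16 (2.08) came next, ahead of Sfrp1. The called antagonists were all secreted Frizzled-related proteins, which bind Wnt ligands through a domain like that of Frizzled. Of the 9 antagonists tested 3 were called higher and 0 lower by limma, with 3 of the 9 at an unadjusted p under 0.05 and 0 called lower by edgeR or DESeq2. The limma share was 33.3%, against 23.2% of all genes tested, with 11.6% in each direction. Sfrp4 (chromosome 13, 19623104 to 19632994), known for its effect on cortical bone, had 278, 319, 706 and 206 normalised reads in the controls and 2603, 1255, 1167 and 1885 in the libraries labelled knockout. The highest control, replicate 3, was below the lowest library of the other group. The difference was 2.28 (SE 0.37, adjusted p = 0.00533), or 4.85-fold.

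Sfrp2 (chromosome 3, 83766321 to 83774316), a product of fibroblasts, had 36.8, 51.5, 205 and 158 normalised reads in the controls and 831, 539.7, 186 and 651 in the libraries labelled knockout. Knockout replicate 3 lay between the controls, and the other 3 libraries were far above. The difference was 2.43 (SE 0.60, adjusted p = 0.0194), and the call was lost when control replicate 2 was left out, or knockout replicate 1 or 4 and under the replicate block. Sfrp1 (chromosome 8, 23411502 to 23449632), an inhibitor of bone formation, had 46.5, 73.7, 122 and 29.6 against 237, 315, 130.5 and 305. The groups did not overlap, although control replicate 3 and knockout replicate 3 were near each other. Its difference was 1.96 (SE 0.42, adjusted p = 0.0125). Sfrp1 and Sfrp4 were called in all 18 alternatives.

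The antagonists known as cartilage products did not pass the test. Frzb, the Frizzled-related protein of articular cartilage, ranged from 118 to 235 in the controls and from 166 to 282 in the libraries labelled knockout (difference 0.37, SE 0.24, adjusted p = 0.286). Wif1, which is also expressed at the cartilage surface, varied widely within each group, from 44.9 to 273 and from 87.0 to 417 (difference 0.74, SE 0.59, adjusted p = 0.39). Of the 11 chondrocyte markers tested, 2 were called higher, Col11a1 (2.17, adjusted p = 0.0144) and Hapln1 (1.28, adjusted p = 0.0165), 10 lay above 0 and the median difference was 0.74; their part in the values of Frzb and Wif1 was not tested. Sfrp5 ranged from 28.5 to 96.8 over the 8 libraries (difference -0.35, 95% interval -1.30 to 0.60).

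Dkk3, a distant member of the Dickkopf family, was the antagonist with the highest level per kb. It had 796, 1508, 1640.4 and 602 normalised reads in the controls and 1316, 1739.6, 1117 and 1761 in the libraries labelled knockout. Control replicates 1 and 4 were low and control replicates 2 and 3 were high, the groups overlapped, and the difference was 0.48 (SE 0.31, adjusted p = 0.278). Dkk2, which acts on Lrp5 and Lrp6, ranged from 31.8 to 175 in the controls and had 101, 92.4, 13.05 and 129 in the libraries labelled knockout (difference -0.47, SE 0.72, adjusted p = 0.672). Notum, an enzyme that removes the lipid of Wnt proteins, ranged from 5.61 to 35.9 (difference 0.79, adjusted p = 0.256). Dkk1, the best known inhibitor of Lrp5 and Lrp6 in arthritis and bone loss, was at 0 in control replicate 2 and reached 21.6 in control replicate 1, and was below the filter.

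In the R-spondin axis 1 of 7 tested genes was called, or 14.3%, which is below the 23.2% of all genes tested. Rspo2 (chromosome 15, 43020794 to 43170826), a secreted enhancer of Wnt signalling, had 98.4, 43.4, 86.0 and 127 normalised reads in the controls and 172, 244, 136 and 175 in the libraries labelled knockout, without overlap. The difference was 1.09 (SE 0.31, adjusted p = 0.0309), and the call was lost without knockout replicate 1, 2 or 4, under quantile normalisation and under the replicate block. Rspo1, on few reads, had 5.41, 22.2, 32.7 and 1.10 against 52.9, 48.8, 26.1 and 48.4, with a difference of 2.10 (SE 0.77, adjusted p = 0.0738), and was called without control replicate 3 (adjusted p = 0.0275). Rspo3, from 16.8 to 64.6 in the controls and from 19.7 to 28.2 in the libraries labelled knockout, had a difference of -0.55 (adjusted p = 0.315).

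The receptors and ligases of this axis showed no call, and some were measured tightly. Lgr4, the R-spondin receptor with the highest level per kb, had 442, 489.6, 521 and 535 normalised reads in the controls and 452, 470.4, 477 and 463 in the libraries labelled knockout. All of the latter lay inside the control range, and the 95% interval of the difference ran from -0.29 to 0.11. Znrf3, a ligase that removes Frizzled, ranged from 116 to 124 in the controls and from 99.7 to 136 in the libraries labelled knockout, with an interval from -0.47 to 0.17. Lgr6 ranged from 65.2 to 149.6 (difference 0.21, adjusted p = 0.607), and Rnf43 from 6.16 to 16.2 (difference -0.38, adjusted p = 0.535). Lgr5, a stem cell receptor, stayed between 1.10 and 7.98 normalised reads and was not tested.

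Among the nuclear effectors and targets, Tcf7 rose and Axin2 did not pass the test. Tcf7 (chromosome 11, 52252371 to 52283014), a TCF factor that is also abundant in T cells, had 68.1, 32.3, 46.7 and 50.4 normalised reads in the controls and 113, 87.2, 80.5 and 79.2 in the libraries labelled knockout, with no overlap. The difference was 0.88 (SE 0.24, adjusted p = 0.0273), and the call was lost when control replicate 2 or 4 was left out, or knockout replicate 1, 2 or 4 and under quantile normalisation. Axin2 (chromosome 11, 108920349 to 108950783), the target gene most often read as a measure of beta-catenin signalling, had 164, 160.5, 180.4 and 125 against 149, 121, 141 and 180.4. The groups spanned nearly the same range, and the difference was -0.09 with a 95% interval from -0.46 to 0.28 (adjusted p = 0.711). Its sign turned under the scaling to the remaining genes, where it was 0.058. Lef1, with 1.10 to 15.0 normalised reads, was below the filter.

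The make-up of each family was compared within libraries, because a share does not depend on how libraries are scaled. Levels were divided by exon length and summed over the family. The mean sums per kb in the controls and in the libraries labelled knockout were 343 and 442 for the ligands and 829 and 758 for the Frizzled receptors. For the secreted Frizzled-related proteins they were 249 and 826. A share can fall while the level of the gene does not. Wnt4 made up 26.9 ± 5.20% (SD, n = 4) of the summed ligand level in the controls and 13.2 ± 3.25% in the libraries labelled knockout, and Wnt9a 28.5 ± 5.17% and 19.6 ± 4.21%. Wnt5b rose from 11.6 ± 1.40% to 23.2 ± 4.88%, Wnt10b from 6.05 ± 2.74% to 11.9 ± 0.777% and Wnt16 from 2.13 ± 1.09% to 6.51 ± 0.251%. For these 5 ligands the shares of the groups did not overlap, so Wnt4 and Wnt9a led in the controls, and Wnt5b had the highest mean share in the other group. Among the Frizzled receptors Fzd7, Fzd9 and Fzd4 led in both groups. The share of Fzd7 was 31.2 ± 2.45% in the controls and 21.8 ± 2.51% in the libraries labelled knockout, and that of Fzd1 was 4.56 ± 2.21% and 13.8 ± 4.10%, each without overlap. Within the secreted Frizzled-related proteins, Sfrp4 went from 35.1 ± 7.27% to 49.7 ± 4.66% and Frzb from 24.1 ± 6.47% to 9.49 ± 3.95%, again without overlap. The shares of Sfrp2 overlapped. When shares were taken over all 10 secreted antagonists, those of Frzb overlapped too, at 6.37% to 11.2% in the controls and 3.82% to 8.88% in the libraries labelled knockout. Those of Sfrp4 did not, at 10.3% to 16.9% and 22.4% to 36.5%. The share of Frzb among the Frizzled-related proteins fell although its own mean level was 184 normalised reads in the controls and 235 in the libraries labelled knockout. These shares come from the same contrast as the differences above and were not tested.

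**Figure D4:**
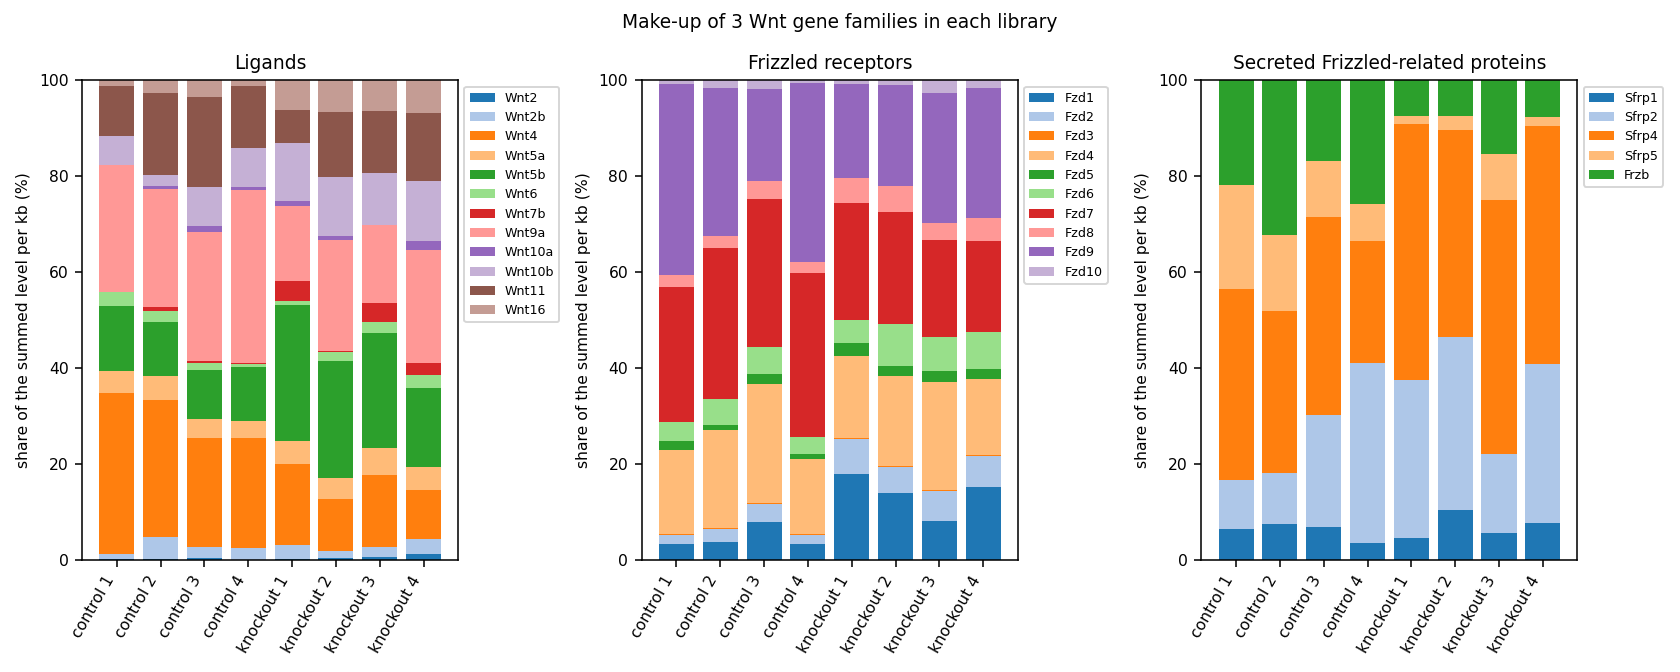
Share of each gene in the summed level per kb of its family (vertical axis, percent), for the ligands, the Frizzled receptors and the secreted Frizzled-related proteins, in each of the 8 libraries. Wnt5b takes 10.3% to 13.6% of the ligand level in the controls and 16.5% to 28.2% in the libraries labelled knockout, while Wnt4 takes 22.7% to 33.6% and 10.1% to 16.8%.

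The same libraries of a group were often the extreme ones. Control replicate 3 was the highest control for 9 of the 15 Wnt genes called higher, and knockout replicate 3 was the lowest of its group for 9 of the 15. Over all 1732 genes called higher the same libraries took these places for 53.6% and 51.1% of genes, close to the Wnt genes. Control replicate 3 was also the control with the highest Loxl2. Leaving out control replicate 3 left 17 Wnt genes called, and leaving out knockout replicate 3 left 15. The number fell furthest without knockout replicate 4, to 9, and was 10 without control replicate 2, 10 without control replicate 4 and 11 without knockout replicate 1. Over all genes the share called fell in the same fits, from 23.2% to 11.8%, 12.9%, 14.9% and 16.4%.

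The other genes of the pathway, taken from separate lists of the pathway's parts, were called in 19 of 50 tested cases. That is 38.0%, against 23.2% of all genes tested. Of the 19, 14 were higher and 5 lower, while 11.6% of all genes were called in each direction. Of the 63 genes listed, 8 were not analysed here, and 5 more were below the filter. In the intracellular chain 5 of 22 genes were called (22.7%), close to the share of all genes, and their median difference was 0.06. Gsk3a and Gsk3b, the kinases that mark beta-catenin for breakdown, were lower by -0.44 (adjusted p = 0.00972) and -0.34 (adjusted p = 0.0348), and Pygo2 and Tle3, a co-activator and a co-repressor of TCF factors, were higher by 0.36 (adjusted p = 0.0199) and 0.60 (adjusted p = 0.0262). Ctnnb1, the beta-catenin gene, named for its role outside the naming rule, was not called and had an interval from -0.07 to 0.25.

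The secreted and receptor genes outside the members were called in 5 of 10 cases, with 4 of 10 higher and 1 lower. For this list and those below, the share over all genes tested was 23.2%, with 11.6% higher and 11.6% lower. Ptk7, a co-receptor of planar polarity, rose by 1.84 (adjusted p = 0.00525), from 69.6 ± 28.0 to 245 ± 64.5 normalised reads (SD, n = 4). Cthrc1, a secreted protein that favours the Ror2 branch, rose by 2.26 (adjusted p = 0.0176), and Trabd2b, a protease that inactivates Wnt ligands, by 0.82 (adjusted p = 0.0171). Draxin, a secreted antagonist with at most 11.9 normalised reads in a control, rose by 3.65 (adjusted p = 0.0131). Draxin passed the filter on low values mainly through the libraries labelled knockout, where it was high. Planar polarity genes were called in 4 of 9 cases. Daam2 (1.01, adjusted p = 0.00653), Prickle2 (0.83, adjusted p = 0.0195) and Vangl2 (1.05, adjusted p = 0.0455) were higher, and Celsr2 (-0.67, adjusted p = 0.014) was lower. Of 9 further genes often named as Wnt targets, 5 were called higher and 0 lower by limma, edgeR or DESeq2. Ccn4 and Ccn5, listed under their older names Wisp1 and Wisp2, rose by 1.78 (adjusted p = 0.0107) and 1.68 (adjusted p = 0.0124), Bambi by 1.10 (adjusted p = 0.0241) and Cd44 by 1.09 (adjusted p = 0.0293). Ccnd1, Myc, Tnfrsf19 and Birc5 of the same list were not called. Of the fibroblast markers 10 of 14 and of the macrophage markers 9 of 10 were called higher in the same libraries, and their part in these calls was not tested.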

How the data were processed

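Poly-A RNA of 8 mouse knee joint samples was sequenced. Reads were aligned with HISAT2 to mm10 and counted per gene with featureCounts, per the submitters' processing notes. Versions, annotation and use of strand are not given in the sources used here. The values are a normalised signal deposited by the authors: gene counts divided by a size factor per library, with DESeq2 named in the series' design text. All values (100%) came within 0.05 of whole reads once each column's step was found, which gave 13991000 to 17411617 reads per library. For 2 columns (control replicate 2, knockout replicate 1) this step is close to that of an undivided count, so whole values say less there than in the other 6 columns. Size factors computed from the recovered reads by the median of ratios equalled the recovered factors in all 8 columns, with 0.990668 and 1.0027 in these 2. The count tests were run on these reads as alternatives.

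Genes that reached 10 in 4 or more libraries were tested on log2(value + 1) with limma 3.58.1 in R 4.3.3, with Benjamini-Hochberg adjustment over all 14949 genes and a threshold of 0.05. A fold change on this scale understates the change of low genes. Intervals are 95% intervals of that fit. The members and all gene lists were chosen with earlier results of these data known. Every called member is named, called members with a mean of at least 50 and the member highest per kb of each role are given in all libraries, and up to 4 called genes of each other pathway list are named by smallest p. Full values of Wnt7b and Rspo1 were added after they were seen. Gene positions and exon lengths are from GENCODE M21 (GRCm38), which matched 20520 names (99.2%); 12 names occur more than once. Among the members 19 overlap another annotated gene, Wnt5a, Wnt5b, Wnt7b, Fzd3, Sfrp2 and Tcf7 among those called, and reads of an overlapping gene cannot be told apart where strand was not used. Alternatives were other pseudocounts, filters, scalings and tools (edgeR 4.0.16, DESeq2 1.42.0), a replicate block, the muscle covariate and leaving out each library. The labels do not say whether replicates are separate animals or what a shared number means. The p-values therefore set the group difference against the spread between these samples, which may be technical. For the 12 pairs of libraries within a group, the chi-square of the reads per degree of freedom was 23.5 to 59.7, where counting alone gives about 1. The scripts were tested on simulated data.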

Additional observations from a re-analysis of the deposited data

Results flagged for a closer look

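In 86 member and group pairs of 4 libraries each, 4 had a library whose gap to its nearest neighbour exceeded the 95% limit of Dixon's test for 4 values. Chance gives this in about 1 of 20 pairs. Fzd1 was 247.7 normalised reads in control replicate 3, against 120.5 to 126.2 in the other controls. Dkk2 was 13.05 in knockout replicate 3, against 92.4 to 129.4 in the others of its group. Rspo1 was 26.1 in knockout replicate 3, against 48.4 to 52.9. Znrf3 was 135.6 in knockout replicate 4, against 99.7 to 104.3.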

How the results depend on the processing

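Outside the muscle covariate, all 17 called members kept their direction in each alternative that tested them (18, or 14 for Wnt7b), and 8 were called in each: Wnt5b, Wnt10b, Wnt16, Fzd1, Fzd2, Fzd7, Sfrp1 and Sfrp4. The number of members called, 17 as reported, was 11 under quantile normalisation, 11 with the replicate block, 0 with the muscle covariate and 9 to 17 when each library was left out in turn. Of all genes, 17.1% were called under quantile normalisation, 13.5% with the block and 11.8% to 26.0% with 1 library left out. The number called higher, 15 as reported, was 9 under quantile normalisation, 9 with the replicate block, 0 with the covariate and 8 to 14 with 1 library left out, where 8.66%, 7.47%, 0% and 5.53% to 12.4% of all genes were called higher. The number called lower, 2 as reported, was 1 without the filter on low values, 1 under the scaling to the remaining genes (chosen after seeing the data), 1 with edgeR, 0 with the covariate and 1 to 3 with 1 library left out. Of the other pathway genes, 19 as reported, 8 were called with the replicate block, 0 with the covariate and 9 to 22 with 1 library left out. Same-numbered libraries correlated in their deviations from the group means at 0.21, -0.12, -0.23 and -0.06 for numbers 1 to 4. Differently numbered libraries correlated at -0.16 to 0.27. These few values cannot settle whether a shared number marks a pair or a batch.

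With the muscle covariate, 2 called members changed sign, Wnt4 (0.13) and Fzd8 (-0.084), and so did 8 of the 26 not called: Wnt10a (-1.86), Fzd4 (0.092), Lrp6 (-0.088), Ror1 (-0.28), Sfrp5 (1.43), Wif1 (-1.81), Lgr6 (-0.84) and Rnf43 (0.90). In the other alternatives 8 members not called changed sign. Quantile normalisation gave -0.10 for Wnt11, -0.16 for Fzd10 and -0.026 for Lgr6, and the scaling to the remaining genes gave 0.063 for Lgr4, 0.058 for Axin2 and 0.0021 for Znrf3. With 1 library left out in turn, Wnt11 ran from -0.16 to 0.21 and was below 0 on leaving out control replicate 1 or 4, or knockout replicate 2, 3 or 4, and Fzd10 ran from -0.18 to 0.42 and was below 0 on leaving out control replicate 1 or 4, or knockout replicate 3 or 4. Wnt2b ran from -0.0026 (without control replicate 1) to 0.69, and Dkk2 from -0.95 to 0.27 (without knockout replicate 3). The cause was not tested for these changes. Wnt2, Dkk1, Lgr5 and Lef1, whose reads summed over the 8 libraries to 30, 56, 39 and 58, were not called without the filter either, with differences of 1.37, 0.31, 0.76 and 0.91 and limma adjusted p = 0.163, 0.849, 0.348 and 0.343.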
